A study of Mus musculus with 24 samples.

Results

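The genes described here encode the MHC class II molecules of the mouse, the proteins that load them with peptide, and their transactivator. They were H2-Aa, H2-Ab1, H2-Eb1, Cd74, Ciita, H2-DMa, H2-DMb1, H2-DMb2, H2-Oa and H2-Ob. Every probe with 1 of these symbols in the platform annotation was taken, whatever its value. This gave 18 of the 45281 probes of the Illumina MouseWG-6 array, for 10 of 19057 genes. The mice were 24 IL-10 KO males of the 129/SvEv strain, aged 3 months, and RNA from the proximal colon of each was put on 1 array. These mice lack interleukin (IL)-10 in all cells and develop intestinal inflammation, and no wild-type mice were analysed here. HH mice had mothers on the high diet, at 5000 IU vitamin D3 per kg diet in pregnancy and lactation, and stayed on it after weaning. HL mice had mothers on the high diet and were weaned onto the low diet, at 25 IU per kg. LH mice had mothers on the low diet and were weaned onto the high diet, and LL mice were on the low diet throughout. Each group had 6 mice. A mouse is named here by its group and the label of its mother, such as HL 10, and 4 pairs of mice shared a mother across post-weaning diets.

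Class II molecules present peptides from endosomes to CD4+ T cells on dendritic cells, B cells and macrophages, and on intestinal epithelium during inflammation. The alpha and beta chains pair in the endoplasmic reticulum with the invariant chain, encoded by Cd74, which blocks the groove. In the endosome the invariant chain is cut down to a short fragment, which the DM molecule exchanges for peptide, and the DO molecule restrains DM. Ciita binds no DNA itself. It is recruited by the RFX and NF-Y complexes, which sit on the X and Y boxes of class II promoters, and it is induced by interferon-gamma in cells that do not express it constitutively.

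RefSeq promoter windows on GRCm38.p6 were matched for 7 of the 10 genes, H2-Aa, H2-Eb1, H2-DMa, H2-DMb1, H2-DMb2, H2-Oa and H2-Ob. Each window holds 300 bases of the C57BL/6J reference, not of the strain studied. The windows of H2-DMa and H2-DMb2 lie inside the gene, and those of the other genes span its start. The windows were searched on both strands for the letters CNNNNAAC, part of the X box, followed 20 to 45 bases on by GATTGG. The latter holds the CCAAT core of the Y box on the other strand. These letters were chosen after the sequences had been seen. Of the 7 genes, 6 had the pair on the strand of the gene and 0 had it on the other strand, against 1.29% of all 32851 windows on either strand. GATTGG alone was in 16.1% of all windows and CNNNNAAC alone in 81.6%. The stretches below are shown because these 6 of the 10 genes held the letter pair, with the X and Y letters in capitals.

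H2-Aa (chr17:34287857-34287917, minus strand): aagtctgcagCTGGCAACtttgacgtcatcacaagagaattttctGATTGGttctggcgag
H2-Eb1 (chr17:34305763-34305822, plus strand): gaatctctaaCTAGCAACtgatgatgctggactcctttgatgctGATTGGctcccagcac
H2-DMb1 (chr17:34153084-34153144, plus strand): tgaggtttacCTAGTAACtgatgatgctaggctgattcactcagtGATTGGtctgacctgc
H2-DMb2 (chr17:34145113-34145173, plus strand): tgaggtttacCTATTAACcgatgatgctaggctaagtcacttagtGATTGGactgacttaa
H2-Oa (chr17:34092290-34092350, plus strand): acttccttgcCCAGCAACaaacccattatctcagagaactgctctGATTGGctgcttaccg
H2-Ob (chr17:34238805-34238862, plus strand): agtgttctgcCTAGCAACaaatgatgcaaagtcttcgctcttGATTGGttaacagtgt

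The first X base lay 34 or 35 bases before the first Y base in H2-Aa, H2-Eb1, H2-DMb1, H2-DMb2 and H2-Oa, and 32 bases before it in H2-Ob. H2-Oa had 2 matches to the X letters paired with its GATTGG, of which the first is shown. The paralogs H2-DMb1 and H2-DMb2 had near-identical stretches. Neither of the 2 windows of H2-DMa held the pair, and 1 of them held GATTGG. These windows began at 34122582 and 34125268 on chromosome 17, inside the gene, which starts at 34119693, so its start was not searched. The window of H2-DMb2 began at 34144999, also inside the gene, which starts at 34143229. No window was used for H2-Ab1, Cd74 or Ciita. The 8 H2 genes lie together on chromosome 17, Ciita lies on chromosome 16 and Cd74 on chromosome 18.

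The deposited data hold a raw intensity, a detection score and a log2 quantile-normalized value for each probe. Of the 18 class II probes, 15 were detected on all 24 arrays at a score above 0.99. A second probe of Ciita was detected on 17 arrays, of H2-DMb2 on 22 and of H2-Oa on 21. The brightest probe of a gene stands for it below. The share of all probes detected on an array was 21.2% to 37.0%, and 3 arrays (HL 2A, LL 3B and LH 6A) lay at 21.2%, 21.9% and 23.5%. In a list of smooth muscle markers, 3 mice (HH 10B, HL 10B and LL 6) lay 0.56 to 0.77 above the mean of the mice on the log2 scale, and the other 21 lay at most 0.09 above it. Many results that rest on these mice are given with and without them. The genes most like H2-Aa and Ciita, the ranks and some correlations are given over all 24 mice only. In whole tissue, fewer cells of a type and less RNA per cell cannot be told apart.

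The chains of the classical class II molecule were bright in every mouse. H2-Aa, the alpha chain, had log2 intensities of 13.24 to 13.95 (median 13.62) among HH mice, 13.15 to 13.61 (median 13.45) among HL, 13.35 to 14.26 (median 13.53) among LH and 13.18 to 13.85 (median 13.58) among LL. H2-Ab1, its beta chain, was at 13.44 to 13.85 (median 13.64) among HH mice, 13.26 to 14.30 (median 13.63) among HL, 13.31 to 13.95 (median 13.74) among LH and 13.20 to 13.81 (median 13.66) among LL. All 4 groups overlapped for both genes. The single highest mouse was LH 13 for H2-Aa and HL 10 for H2-Ab1. H2-Eb1, the beta chain of the second classical molecule, was at 12.22 to 13.10 (median 12.94) among HH mice, 12.21 to 13.28 (median 12.62) among HL, 12.61 to 13.23 (median 12.97) among LH and 12.16 to 13.01 (median 12.85) among LL. HL 10B, HH 10B and LL 6, at 12.16 to 12.22, lay below the other 21 mice, which began at 12.58. The partner of H2-Eb1, H2-Ea, was detected on 0 arrays. Mice of the H2-b haplotype do not make this alpha chain. H2-Eb2, a second beta chain gene, was detected on all 24 arrays at 7.40 to 8.30, and differed by 0.17 (SE 0.10) between the high and the low post-weaning diet.

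Cd74, the invariant chain, was at 14.12 to 14.69 (median 14.52) among HH mice, 13.47 to 14.87 (median 14.48) among HL, 13.54 to 14.74 (median 14.51) among LH and 13.92 to 14.46 (median 14.22) among LL. The groups overlapped, and HL 2A and LH 6A were the 2 lowest mice. Ciita was at 9.22 to 9.56 (median 9.41) among HH mice, 9.01 to 9.78 (median 9.51) among HL, 9.19 to 9.61 (median 9.48) among LH and 8.89 to 9.89 (median 9.44) among LL. The lowest and the highest mouse were both in LL, LL 6 and LL 3B. The SD of Ciita over the 24 mice was 0.22, which was larger than that of 28.4% of the 8068 probes detected on every array. The second Ciita probe did not follow the first across mice (r = 0.263, rho = 0.110, permutation p = 0.212 for r, n = 24), so statements on Ciita rest on 1 probe.

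The DM molecule is encoded by H2-DMa and by the paralogs H2-DMb1 and H2-DMb2, whose probes may share signal. H2-DMa was at 10.73 to 11.39 (median 11.22) among HH mice, 10.69 to 12.10 (median 11.21) among HL, 10.98 to 11.60 (median 11.24) among LH and 10.81 to 11.60 (median 11.29) among LL. H2-DMb1 was at 10.39 to 11.65 (median 11.16) among HH mice, 10.63 to 11.64 (median 11.18) among HL, 10.93 to 11.51 (median 11.28) among LH and 10.72 to 11.65 (median 11.33) among LL. H2-DMb2 was at 9.76 to 10.77 (median 10.57) among HH mice, 9.81 to 11.14 (median 10.46) among HL, 10.34 to 11.18 (median 10.78) among LH and 10.24 to 10.96 (median 10.57) among LL. For each of these 3 genes, and for H2-Eb1, the 3 lowest of the 24 mice were HH 10B, HL 10B and LL 6.

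The DO molecule is made mainly by B cells. H2-Oa, its alpha chain, was at 7.84 to 8.83 (median 8.69) among HH mice, 7.78 to 9.83 (median 8.36) among HL, 7.98 to 9.19 (median 8.48) among LH and 7.99 to 8.97 (median 8.58) among LL. H2-Ob, its beta chain, was at 7.93 to 8.52 (median 8.40) among HH mice, 7.72 to 9.08 (median 8.06) among HL, 7.72 to 8.75 (median 8.22) among LH and 7.65 to 8.52 (median 8.19) among LL. HL 10 was the highest of all mice for both. H2-Oa had the largest spread among the brightest probes, with an SD of 0.47 and a 4.12-fold range over the 24 mice, larger than the SD of 91.7% of the probes detected on every array. HL 10 was the highest of the 24 mice for 6 of the 10 genes and LL 6 was among the lowest 5 for all 10. The share of all probes with these traits was not counted, and HL 10 was also highest on lists of other immune genes, given below.

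**Figure D1:**
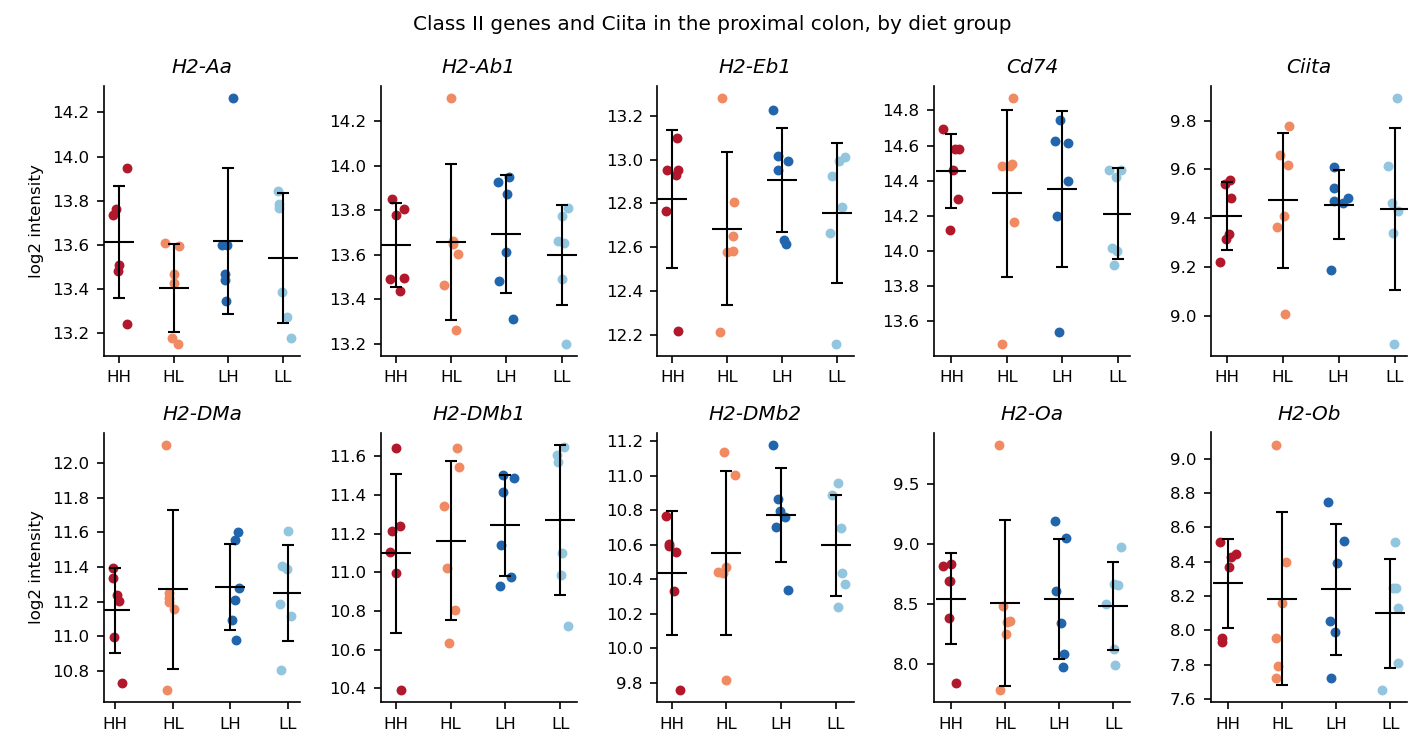
Log2 quantile-normalized intensity of the brightest probe of each of the 10 genes in the proximal colon, with 1 point for each mouse and 6 mice in each diet group. Horizontal bars are group means and vertical bars are SD. All 4 groups overlap in every panel, and HL 10 is the highest mouse in HL for H2-Ab1, H2-Eb1, Cd74, Ciita, H2-DMa, H2-DMb2, H2-Oa and H2-Ob.

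No class II gene differed by post-weaning diet beyond the spread between mice. Averaged over maternal diets, 7 of the 10 genes were above 0 on the high diet and 3 below it, with a median log2 difference of 0.04. Of all 31298 probes tested, 50.8% were above 0 and their median was 0.0014. With median scaling in place of quantile normalization all 10 genes and 62.8% of all probes were above 0. The most positive was H2-Aa, which averaged 13.62 ± 0.28 for the HH and LH pups together and 13.47 ± 0.25 for HL with LL (SD, n = 12 each), a difference of 0.14 (SE 0.11, 95% confidence interval -0.08 to 0.36). H2-Eb1 averaged 12.86 ± 0.27 with high-diet and 12.72 ± 0.32 with low-diet pups (difference 0.14, SE 0.12), and Cd74 averaged 14.40 ± 0.34 in high-diet pups and 14.27 ± 0.37 in low-diet pups (difference 0.13, SE 0.14). Ciita averaged 9.43 ± 0.14 in high-diet pups and 9.45 ± 0.29 in low-diet pups, a difference of -0.02 (SE 0.09, 95% confidence interval -0.22 to 0.17). With limma, 0 of the 18 probes passed at an adjusted p under 0.05, as did 0% of all probes, and the smallest adjusted p among the 10 genes was 0.944. At an unadjusted p under 0.05 there were 0 of the 18, against 4.22% of all probes, and the smallest p of the 18 was 0.189, for H2-Aa. The 95% confidence intervals of the 10 genes lay within -0.36 and 0.45.

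The pre-weaning diet gave no difference beyond the spread between mice either. Of the 10 genes, 4 were above 0 for the high maternal diet and 6 below it, with a median of -0.03, against 51.8% of all 31308 probes above 0. With median scaling all 10 genes were above 0, as were 70.7% of all probes, so the signs depended on the scaling. H2-DMb2 averaged 10.49 ± 0.41 for the HH and HL pups together and 10.69 ± 0.28 for LH with LL (SD, n = 12 each), a difference of -0.19 (SE 0.14, 95% confidence interval -0.48 to 0.09). It was the most negative of the 10, and the other H2-DMb2 probe differed by 0.01 (SE 0.16). H2-DMb1 averaged 11.13 ± 0.39 with a high maternal diet and 11.26 ± 0.32 with a low one, and Cd74 averaged 14.39 ± 0.36 with the high and 14.28 ± 0.35 with the low maternal diet. Ciita was at 9.44 ± 0.21 with the high and 9.45 ± 0.24 with the low maternal diet. With limma, 0 of the 18 probes passed the adjustment (0% of all probes, smallest adjusted p = 0.999), and 0 had an unadjusted p under 0.05, against 2.71% of all probes.

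The interaction asks whether the difference by pup diet depended on the diet of the mother. In pups of mothers on the high diet, 5 of the 10 genes had a higher mean in HH than in HL mice. In pups of mothers on the low diet, 9 of 10 had a higher mean in LH than in LL mice. The share of all probes above 0 in either of these differences was not counted, so the counts are a description. The difference between these differences passed in 0 of the 18 probes with limma (0% of all 37654 probes), and 0 had an unadjusted p under 0.05, against 2.94% of all probes. Its most negative value was -0.29 (SE 0.28) for H2-DMb2, and its 95% confidence intervals over the 10 genes lay within -0.87 and 0.78, so it was measured less precisely than either diet. A test of whether the 4 groups differed in any way called 0 of the 18 (0% of all probes). At an unadjusted p under 0.05 it also had 0 of the 18, against 2.47% of all probes.

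**Figure D2:**
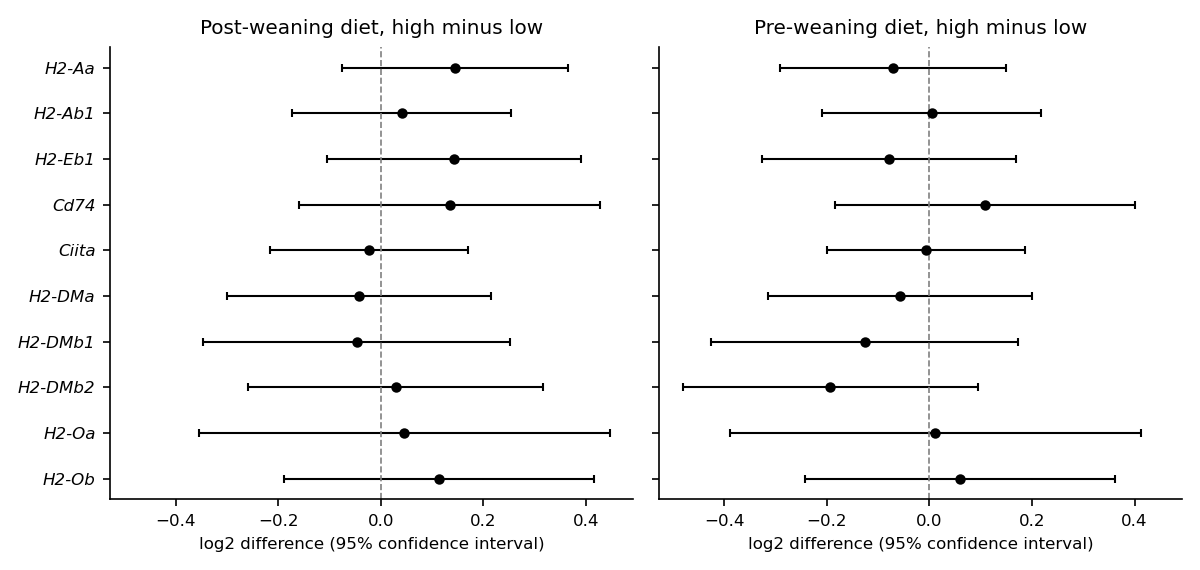
Log2 difference of each gene between the high and the low diet (points) with its 95% confidence interval from limma (bars), for the post-weaning diet of the pup (left) and the pre-weaning diet of the mother (right), n = 12 mice in each arm. Every interval spans 0, and the means run between -0.05 and 0.14 on the left and between -0.19 and 0.11 on the right.

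In the 4 pairs of mice that shared a mother, 1 pup had been weaned onto the high diet and 1 onto the low. HH 10 was lower than HL 10 for 9 of the 10 genes. For H2-Oa these mice were at 8.69 and 9.83, and for H2-DMa at 11.24 and 12.10. HH 10B was lower than HL 10B for 5 genes, LH 13 lower than LL 13 for 6 and LH 3B lower than LL 3B for 5. H2-Ob was the 1 gene with the same direction in all 4 pairs, and the share of all probes with this trait was not counted. It was at 8.52, 7.96, 8.06 and 7.99 in HH 10, HH 10B, LH 13 and LH 3B, against 9.08, 8.16, 8.52 and 8.13 in HL 10, HL 10B, LL 13 and LL 3B. Over all 24 mice its difference was 0.11 (SE 0.15), above 0. With the mother as a block, the 4 pairs alone gave -0.34 (limma, adjusted p = 0.485). H2-Ob was picked by its direction in these pairs, so the fit on them is a description. Its direction by post-weaning diet differed between the paired and the whole set of mice, and neither value passed the adjustment. The direction of H2-Ab1, H2-DMb2 and H2-Oa also differed between these sets.

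Although the diets did not separate them, the class II genes varied together from mouse to mouse. Of the 45 pairs of the 10 genes, 43 had a Pearson r above 0 over the 24 mice, against 50.8% of all pairs of 8903 genes detected on at least 12 arrays. The median r was 0.469, against 0.00790 for all pairs of those genes, and 9 of the 45 were above 0.7, against 1.56% of all pairs. After Benjamini-Hochberg adjustment over the 45 pairs, 23 passed a permutation test of r and 16 passed for both r and Spearman's rho. The pairs share libraries and depth, and genes are not independent replicates. The test takes the 24 mice as independent, although 4 pairs of them, HH 10B and HL 10B included, shared a mother. With 1 mean value for each of the 20 mothers, the median r was 0.436, 17 of the 45 passed for r and 13 for both. With the residuals from the 4 group means the median r was 0.477, and with median scaling of the arrays it was 0.851, where that of all pairs of the 8903 genes was 0.693 and 97.9% of them were above 0. Within the groups of 6 it was 0.677 for HH, 0.670 for HL, 0.263 for LH and 0.601 for LL. Without HH 10B, HL 10B and LL 6 the median r was 0.270, and 37 of 45 pairs were above 0, against a median of 0.0101 for all pairs of the 8903 genes. Without HL 2A, LL 3B and LH 6A it was 0.567, and all 45 were above 0.

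The closest pairs included genes whose products act together. H2-DMb1 and H2-DMb2 gave r = 0.819 (rho = 0.771, permutation test, adjusted p = 0.000112 for r), which may include shared signal between their probes. The chains of DO, H2-Oa and H2-Ob, gave r = 0.805 (rho = 0.790, permutation test, adjusted p = 0.000112 for r) and 0.840 without the 3 mice with high smooth muscle markers. H2-Ab1 and Cd74 gave 0.784 (rho = 0.729), and 0.773 without those mice. H2-Eb1 was the gene with the most such relations, passing for both r and rho with 7 of the 9 others. Its r was 0.781 with H2-DMa, 0.762 with H2-DMb2, 0.736 with H2-Ab1, 0.640 with H2-Oa and 0.635 with H2-DMb1. HH 10B, HL 10B and LL 6 were its 3 lowest mice, and without them these values were 0.603, 0.526, 0.699, 0.430 and 0.270. Without them H2-DMb1 with H2-DMb2 gave 0.656. Leaving out the 2 mice farthest from the median of the first gene gave 0.704 for H2-DMb1 with H2-DMb2, 0.779 for H2-Oa with H2-Ob, 0.774 for H2-Ab1 with Cd74 and 0.699 for H2-Eb1 with H2-DMa. H2-Aa and H2-Ab1, the 2 chains of 1 molecule, gave r = 0.386 (rho = 0.394, permutation test, adjusted p = 0.0914 for r), which did not pass.

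Ciita followed the genes it activates to differing degrees. Its r with the 9 others ran between 0.0943 for Cd74 and 0.607 for H2-DMa, with a median of 0.421. For H2-DMb1, r = 0.556 and rho = 0.510 both passed the permutation test after adjustment (adjusted p = 0.0124 for r and 0.0363 for rho). This was the only relation of Ciita that passed for both. Its r was 0.338 without the 3 mice with high smooth muscle markers. Within the groups it was -0.139 for HH, 0.815 for HL, 0.583 for LH and 0.722 for LL. Without HH 10B, HL 10B and LL 6, the r of Ciita ran between -0.125 and 0.388, and that with H2-Eb1 was 0.202, against 0.587 over all mice. Without HL 2A, LL 3B and LH 6A, it ran between 0.288 for H2-Ob and 0.766 for H2-Eb1. With H2-Ab1 it was then 0.741, against 0.421 over all mice, and with H2-DMb1 0.486. Among 8902 genes ordered by r with Ciita, H2-DMa stood at rank 76, H2-Eb1 at rank 102, H2-DMb1 at rank 150 and Cd74 at rank 3278. The 5 genes most like Ciita were F10, the coagulation factor gene, at r = 0.791, the myosin gene Myo1f at 0.753, Tnfaip2, a gene induced by tumour necrosis factor, at 0.750, Serpina10 at 0.747 and Mag at 0.746, all over 24 mice and as a description.

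Cd74 followed H2-Ab1 and few other members. Its r with the 8 other genes ran between -0.0787 for H2-DMb1 and 0.469 for H2-Eb1. It moved with the share of probes detected on the array (r = 0.721, rho = 0.539, permutation test, adjusted p = 0.00130 for r), and its other 2 probes moved with its brightest (r = 0.936 and 0.877). Without the 3 arrays of lowest detected share, r with that share was 0.283 and the r of Cd74 with the 8 genes ran between 0.156 and 0.696. For Ciita it was then 0.648, against 0.0943 over all arrays. The mean share of probes detected was 32.5% for high-diet and 31.4% for low-diet pups, and 32.8% with the high and 31.1% with the low maternal diet.

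The 10 genes most like H2-Aa, of 8893, included Ctss, the cathepsin that cuts the invariant chain, at r = 0.818, and Irf8 and Jak1, which act in the interferon-gamma response, at 0.782 and 0.787. The others were Eid1 at 0.830, Marcksl1 at 0.812, Ankrd17 at 0.799, Washc5 at 0.792, Ywhae at 0.771, Btbd10 at 0.759 and Anxa4 at 0.748. Of these, Eid1 was detected on 13 arrays and Btbd10 on 12, at mean log2 intensities of 7.45 and 7.36, near background. H2-Eb1 stood at rank 47 among 8902 genes ordered by r with H2-Aa, H2-Ab1 at rank 534 and H2-Ob at rank 1583.

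**Figure D3:**
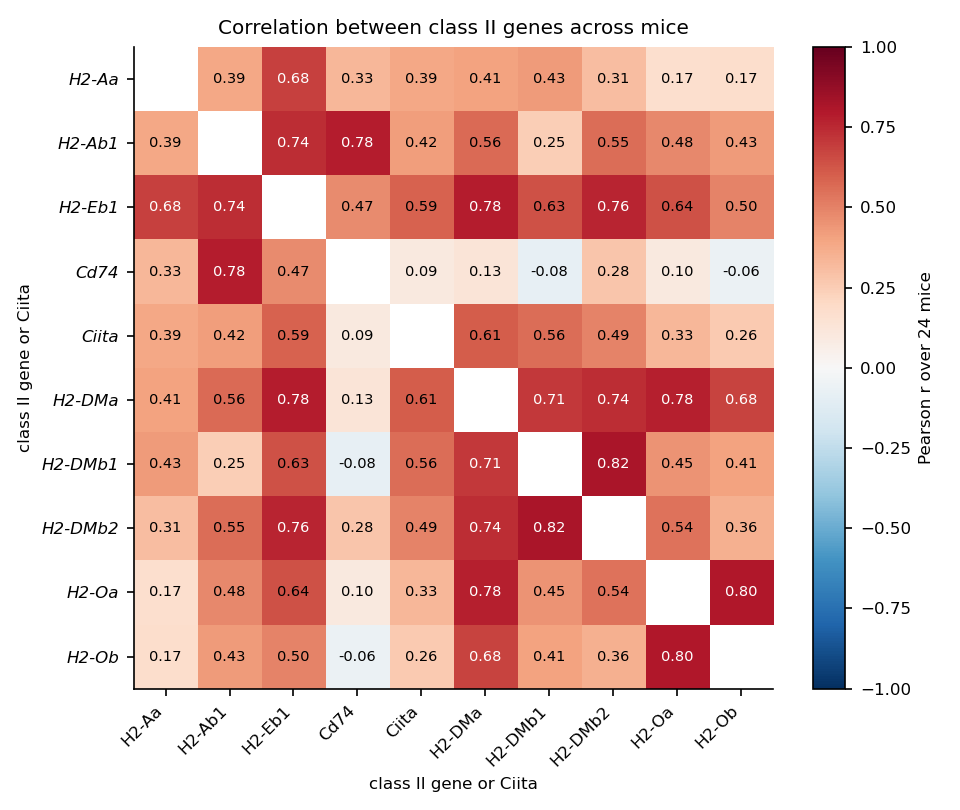
Pearson r of log2 intensity over the 24 mice for each pair of the 10 genes, on a colour scale of -1 to 1. The pairs among H2-Eb1, H2-DMa, H2-DMb1 and H2-DMb2 run between 0.635 and 0.819 (0.270 to 0.656 without HH 10B, HL 10B and LL 6). H2-Oa with H2-Ob is at 0.805 and H2-Ab1 with Cd74 at 0.784. H2-DMa with H2-Oa is at 0.775 (0.666 without those 3 mice). Cd74 lies between -0.08 and 0.13 with Ciita, H2-DMa, H2-DMb1, H2-Oa and H2-Ob.

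The genes were then set against lists of cell type markers and the share of probes detected, giving 110 relations over the 24 mice. Of these, 32 passed the permutation test for both r and rho after adjustment over the 110, and 4 of the 32 were with the smooth muscle list, which is described apart. Of the 10 genes, 6 passed for both with the T cell list, 6 with plasma cells and 5 with B cells. With dendritic cells 4 passed, with macrophages and monocytes 2 and with neutrophils 1. With 1 mean value for each of the 20 mothers 26 passed for both. The share of all genes passing with these lists was not counted. Nor was the count of 32 repeated without the 3 mice with high smooth muscle markers. Without them the highest r of the 10 genes was 0.479 with macrophages and monocytes, against 0.736 over all mice. For neutrophils it was 0.302, against 0.644, and for dendritic cells 0.556, against 0.752. For B cells it was 0.874, against 0.883, and for plasma cells 0.867, against 0.842. H2-Ob followed the B cell list most closely, with r = 0.883 and rho = 0.904 (permutation test, adjusted p = 0.000550 for r). It was 0.874 without the 3 mice with high smooth muscle markers, 0.906 without HL 10 and 0.888 to 0.996 within each of the 4 diet groups. Leaving out the 2 mice farthest from the median gave 0.852. H2-Oa was at r = 0.724 with this list and 0.786 with the T cell list over all 24 mice. Without the 3 mice the highest r of any of the 10 genes with the T cell list was 0.711. Of the 9 B cell markers listed, 7 had a probe. Cd79b, part of the B cell receptor complex, was the gene most like H2-Ob of all 8893 (r = 0.929), as was noted after its value was seen. Cd79b is itself in the B cell list, so this value and that with the list are not separate. The B cell list was dim, with 1 of its genes, Cd79b, detected on all arrays and Cr2 and Pax5 on 0. Its mean was 7.34 to 7.78 among HH mice, 7.41 to 7.73 among HL, 7.32 to 7.78 among LH and 7.28 to 7.67 among LL. Whether the relation with H2-Ob reflects the number of B cells was not tested.

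H2-DMa was closest to the plasma cell list, with r = 0.842 and rho = 0.831 (permutation test, adjusted p = 0.000550 for r), 0.867 without the 3 mice with high smooth muscle markers and 0.751 without HL 10. HL 10 and LH 6A were high for both, and LH 6A was among the arrays of lowest detected share, at 23.5%. Plasma cells themselves express little Ciita or class II, and this list was at 8.92 to 9.23 among HH mice, 8.99 to 9.63 among HL, 8.98 to 9.57 among LH and 8.95 to 9.27 among LL. Ciita and H2-DMb1 were closest to the dendritic cell list, at r = 0.735 and 0.752 (rho = 0.677 and 0.663) and at 0.554 and 0.556 without the 3 mice. In that list Flt3, Zbtb46, Xcr1 and Cd209a were detected on 0 arrays and 0 genes on all 24, so it rests on values near background. H2-Eb1 was at 0.736 with the macrophage and monocyte list, and at 0.386 without the 3 mice. For the colonocyte list 2 of the 10 relations passed, with H2-DMb1 (r = -0.604) and H2-DMa (-0.522). Without HH 10B, HL 10B and LL 6 these were -0.382 and -0.267, and the relations with this list ran up to 0.708, for Cd74, against 0.406 over all mice. For the exocrine pancreas list 0 passed.

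**Figure D4:**
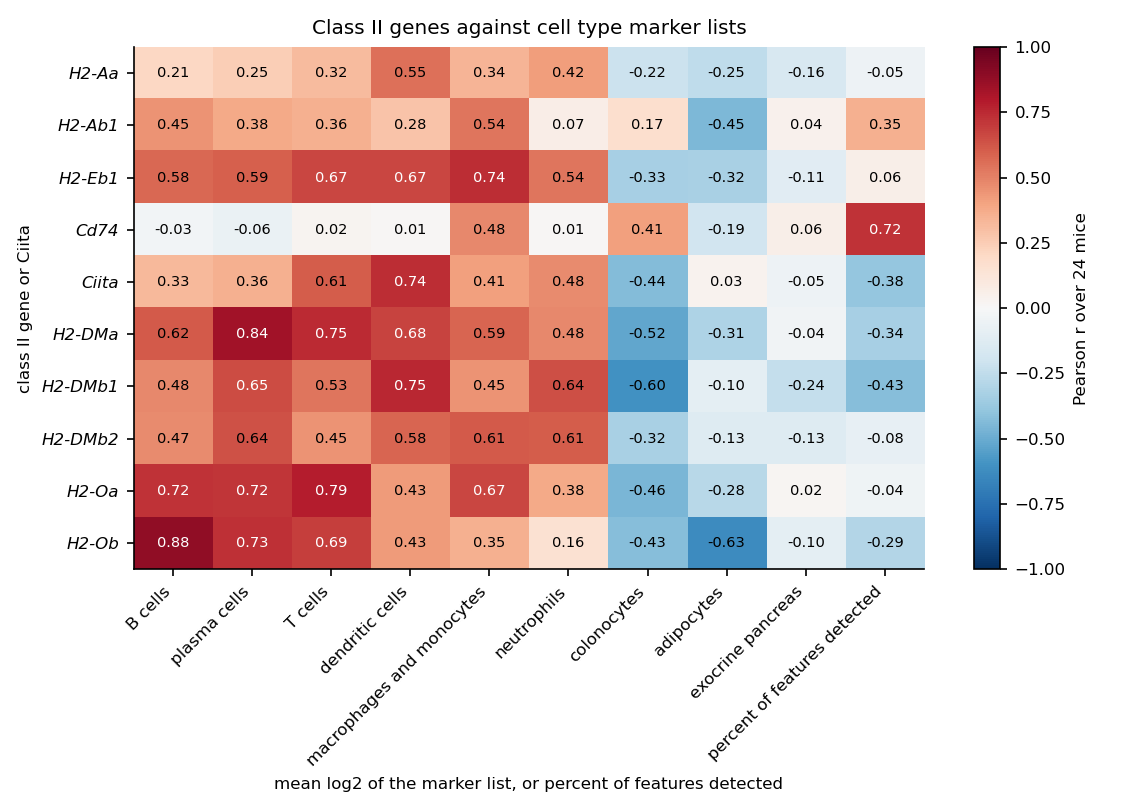
Pearson r over the 24 mice between each of the 10 genes (rows) and the mean log2 level of a cell type list or the share of probes detected on the array (columns), on a colour scale of -1 to 1. The darkest cells are H2-Ob with B cells at 0.883 and H2-DMa with plasma cells at 0.842, and Cd74 is highest with the share of probes detected, at 0.721.

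For the smooth muscle list, HH 10B, HL 10B and LL 6 stood apart from the other mice, so no pooled correlation is given. These 3 mice were at 12.16 to 12.22 for H2-Eb1, against a median of 12.93 in the other 21. For H2-DMa they were at 10.69 to 10.81, against a median of 11.24, and for H2-DMb2 at 9.76 to 10.24, against a median of 10.70. HH 10B and HL 10B had the same mother, and the 3 mice came from 3 diet groups. The same 3 mice were the lowest of the 24 on the lists of macrophages and monocytes (-0.55 to -0.47 from the mean of the mice on the log2 scale), neutrophils (-1.53 to -0.68) and dendritic cells (-0.14 to -0.11), and among the highest 4 on the colonocyte list (0.36 to 0.51). Among the other 21 mice, r with this list ran between -0.482 for H2-Ob and 0.336 for Cd74, and 0 of the 10 relations passed the permutation test after adjustment (smallest adjusted p = 0.268 for r). At an unadjusted p under 0.05 only H2-Ob had a relation by r (p = 0.0268, permutation test). The part of muscle, epithelium or immune cells in the low values was not tested.

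**Figure D5:**
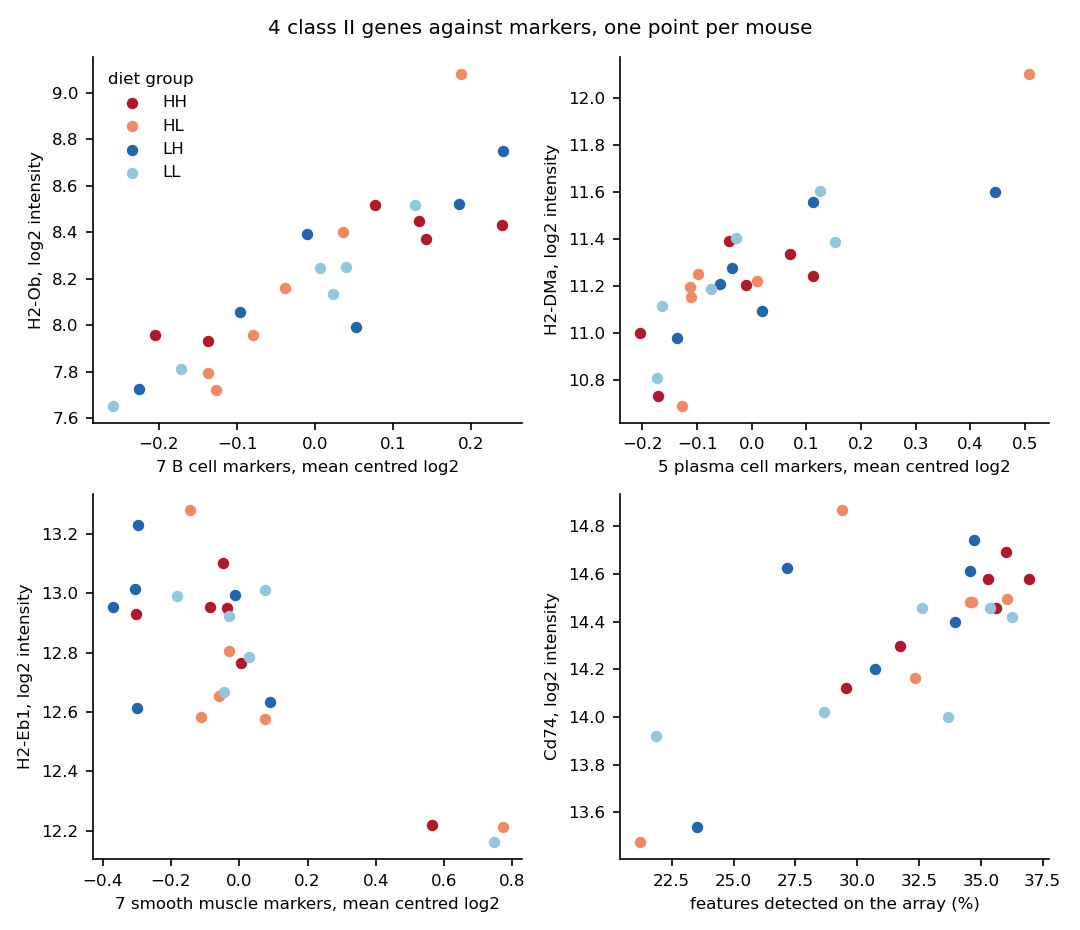
Log2 intensity of H2-Ob, H2-DMa, H2-Eb1 and Cd74 (y axes) against the centred mean log2 of B cell, plasma cell and smooth muscle markers and against the percent of probes detected on the array (x axes), with 1 point for each of the 24 mice, coloured by diet group. H2-Ob rises along the B cell axis in all 4 groups, and 3 mice with smooth muscle values above 0.56 hold the 3 lowest H2-Eb1 values.

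The other genes of the pathway also gave no difference by diet. In 6 lists 47 genes were tested, and with limma 0 passed for either diet. Of the 47, 33 were above 0 by post-weaning and 26 by maternal diet, against 50.8% and 51.8% of all probes. At an unadjusted p under 0.05 there were 2 of the 47 by post-weaning diet, Nfya and Socs1, against 4.22% of all probes, and 1 of the 47 by maternal diet, Ctsl, against 2.71%. Of the 9 genes of the promoter complex and of Ciita's partners, 5 were above 0 and 4 below it by post-weaning diet. Rfx5, a subunit of the RFX complex, was detected on 0 arrays, and Nfya, a subunit of NF-Y, on 2, with a log2 difference of 0.09 (SE 0.04, limma, unadjusted p = 0.0399, adjusted p = 0.944). For the maternal diet 7 were above 0 and 2 below, with Nfya at 0.08 and Rfx5 at 0.06 (SE 0.04 each). Of 10 genes between interferon-gamma and Ciita, 6 were above 0 and 4 below. Ifng was detected on 16 arrays, and averaged 7.53 ± 0.15 in high-diet and 7.46 ± 0.14 in low-diet pups (SD, n = 12 each). Socs1, which restrains signalling by its receptor, differed by -0.20 (SE 0.09, limma, unadjusted p = 0.0426, adjusted p = 0.944), and the kinase gene Jak2 by 0.20 (SE 0.14). For the maternal diet 7 of the 10 were above 0 and 3 below, with the receptor gene Ifngr2 at -0.37 (SE 0.24) and Jak2 at 0.16 (SE 0.14).

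All 6 genes of peptide loading in the endosome were above 0 by post-weaning diet, at a median of 0.11 and 0 at an unadjusted p under 0.05. Of all probes 50.8% were above 0, and 62.8% with median scaling. Ctss averaged 10.17 ± 0.68 in high-diet and 9.90 ± 0.60 in low-diet pups (difference 0.27, SE 0.25). Ifi30, the reductase that opens disulfide bonds of antigens, differed by 0.26 (SE 0.18) and the protease gene Lgmn by 0.16 (SE 0.11). For the maternal diet 2 of these 6 were above 0 and 4 below. Ctsl, a cathepsin gene detected on 4 arrays, differed by -0.12 (SE 0.04, limma, unadjusted p = 0.00577, adjusted p = 0.999), and Ctsb by 0.11 (SE 0.07). Of 9 genes of class II turnover and co-stimulation 6 were above 0 and 3 below by post-weaning diet, and 2 above and 7 below by maternal diet, with Cd4 at 0.10 and -0.07 and Icosl at 0.07 and -0.06. Of 12 genes of class I presentation 9 were above 0 and 3 below by post-weaning diet, with Erap1, an aminopeptidase that trims peptides, at 0.07 and the chaperone gene Calr at 0.43 (SE 0.32). For the maternal diet 8 were above 0 and 4 below, with the immunoproteasome gene Psmb9 at -0.17 and Tapbp, which holds class I molecules at the peptide transporter, at -0.11.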

How the data were processed

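Total RNA from the proximal colon of 24 male mice was hybridized to Illumina MouseWG-6 version 2 arrays by the authors. The files hold a raw intensity and a detection score per probe, as deposited by the authors, and log2 values after quantile normalization by the authors. Repeating this normalization on the raw intensities gave values within 0.000415 of the deposited log2 values, so the centring of each probe on its median that the methods name is not in them. Probe symbols came from the platform annotation, with 34885 probes on 1 symbol and 18 on several, which were not named. 

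The members and lists were chosen with earlier results of these data known. All 18 probes were described, and the brightest by mean stood for a gene. From each pathway list the 2 genes with the smallest p for either diet were named, beside Rfx5, Ifng, Ctss and 1 gene that is not reported here, with the 10 genes most like H2-Aa and the 5 most like Ciita. Differences were fitted in limma 3.58.1 (R 4.3.3) with 4 group means, on probes that exceeded the 20th percentile of their array in 80% or more of 1 of the groups set against each other. All 18 probes passed this filter in each comparison. p-values were adjusted by Benjamini-Hochberg over all probes tested. The fit was tested on simulated data. Correlations used 100000 resamples, two-sided (Python 3.11.15, scipy 1.17.1). The number of arrays limits the precision. The labels name a common mother for 4 pairs of mice. The correlation of their deviations from the group means over 37654 probes was 0.399 for HH 10 and HL 10, 0.613 for HH 10B and HL 10B, 0.00443 for LH 13 and LL 13 and -0.153 for LH 3B and LL 3B. Alternatives were other normalizations and filters, the mother as a block, the detected share as a covariate, the methods' t-test, other probes and leaving out mice. The sets of 3 mice or arrays left out together, HL 10 alone, the 4 pairs alone and the means over each mother's pups were chosen after the data were seen.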

Additional observations from a re-analysis of the deposited data

Results flagged for a closer look

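The 10 genes were examined in each of the 4 groups for a mouse far from the other 5, which made 40 groups, of which chance flags about 1 in 20 and 3 were flagged. H2-Aa was highest in LH 13, at 14.26, where the next mouse of LH was at 13.60. Ciita was lowest in LH 2, at 9.19, where the next mouse was at 9.46. H2-Oa was highest in HL 10, at 9.83, where the next mouse was at 8.48. In HL 10 the lists of T cells, plasma cells and macrophages were also the highest of the 24 mice.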

How the results depend on the processing

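No gene had an adjusted p under 0.05 in any setting, and 0 probes of the whole array were called for any comparison in any of them. The signs of the small differences were less stable, since 26 of 202 single-gene values turned sign in settings other than leaving out 1 mouse. By post-weaning diet, median scaling in place of quantile normalization gave 0.089 for Ciita, 0.042 for H2-DMa and 0.037 for H2-DMb1. By pre-weaning diet it gave 0.017 for H2-Aa, 0.050 for H2-Eb1, 0.21 for Ciita, 0.15 for H2-DMa, 0.075 for H2-DMb1 and 0.033 for H2-DMb2. It also brought the median r of the 45 pairs to 0.851, against 0.469, and that of all pairs of 8903 genes to 0.693, against 0.00790. The neqc background correction gave -0.0036 for H2-Oa by pre-weaning diet. The next brightest probe gave 0.043 for H2-DMa by post-weaning and 0.0055 for H2-DMb2 by pre-weaning diet. The detected share as a covariate gave -0.032 for H2-Ab1 and 0.026 for Ciita by pre-weaning diet. The cause of these changes was not tested.

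With the mother's label as a random block, Ciita was at 0.0041 by pre-weaning diet, and the block changed no call, with 0 probes called for either diet. With 1 mean for each mother the median r of the pairs was 0.436. The 4 mother pairs alone, with the mother as a fixed block, gave -0.041 for H2-Ab1, -0.0083 for H2-DMb2, -0.53 for H2-Oa and -0.34 for H2-Ob by post-weaning diet. Without the 3 arrays of lowest detected share, post-weaning values were 0.041 for Ciita, 0.0057 for H2-DMb1 and -0.058 for H2-Oa, and pre-weaning values -0.0049 for H2-Ab1 and 0.021 for Ciita. Without the 3 mice with high smooth muscle markers, post-weaning values were -0.013 for H2-DMb2 and -0.0063 for H2-Oa. Without HL 10, they were 0.0081 for Ciita and 0.041 for H2-DMa, and pre-weaning values were -0.061 for H2-Ab1, -0.12 for H2-Oa and -0.030 for H2-Ob.

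Leaving out each mouse in turn turned 45 of 480 values. The post-weaning ranges were -0.077 to 0.023 for Ciita, -0.10 to 0.041 for H2-DMa, -0.10 to 0.023 for H2-DMb1, -0.045 to 0.097 for H2-DMb2 and -0.027 to 0.18 for H2-Oa. The pre-weaning ranges were -0.061 to 0.044 for H2-Ab1, -0.061 to 0.041 for Ciita, -0.14 to 0.00031 for H2-DMa, -0.12 to 0.084 for H2-Oa and -0.030 to 0.11 for H2-Ob. The median r ran between 0.409 and 0.501. Among all probes, the methods' t-test gave 1486 by post-weaning and 998 by pre-weaning diet at an unadjusted p under 0.05, against 1322 and 849 with limma, and 0 after adjustment. A BeadChip block could not be run, as the headers name none.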
